A study of Homo sapiens with 18 samples.

Results

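Processed pseudogenes are copies of messenger RNAs that were reverse transcribed and inserted elsewhere in the genome. They therefore lack the introns and promoter of the parent gene and often end in a run of A. In human DNA they are made by the LINE-1 machinery, and genes that are strongly transcribed in the germ line, such as those of ribosomal proteins, have left the most copies. Linker histone H1 binds at the nucleosome where the DNA enters and leaves it and helps to fold the nucleosomal fiber, and H1.2 and H1.5 are isotypes found in most somatic cells. The copies described here were the genes of GENCODE type processed pseudogene on chromosomes 1 to 22 and X with no transcription start site (TSS) of a protein-coding gene within 5000 bp. There were 9335 of them, out of 9949 processed pseudogenes and 63827 annotated genes of all types, and 614 were left out because a start site lay nearer. No measured value entered this rule, but the copies were chosen with earlier results of these data known.

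The cells were undifferentiated, untreated HL-60/S4, an established human myeloid leukemia line, so the material is 1 line and not a set of donors. In the single-fixation protocol (xChIP), chromatin fixed with formaldehyde was broken by sonication and then met the antibody against H1.2 or H1.5. In the double-fixation protocol (xxChIP), permeabilized fixed cells met the antibody first, and a second fixation held it there during sonication. Each antibody had 3 replicates in each protocol, deposited as 1 list of merged peaks, which gives 4 lists, and 6 Input samples completed the 18. Where 4 values follow each other without names, they stand for H1.2 and H1.5 in xChIP and then H1.2 and H1.5 in xxChIP. The lists hold between 138491 and 143193 peaks with medians of 2033 to 2335 bp, and at most 5 peaks in any list were shorter than 1000 bp, so most spans were shorter than most peaks. A peak list has no reads and no replicate values: the depth is unknown, differences between lists cannot be set against replicate error, and every comparison below is a description without a test. In their place the spread over 23 chromosomes is given, and intervals are 95% Wilson intervals, which cover counting error only.

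The spans had a median of 574 bp, with quartiles at 354 and 962 bp, and they ranged from 23 to 22132 bp. Their GC content was 46.7% ± 7.08 (SD over members), against 40.5% in their own 5-kb flanks and 40.5% in TSS-free 2-kb bins of the genome, so each copy was on average a GC-rich segment in ordinary surroundings. Of the copies, 66.6% lay outside protein-coding genes, 21.2% lay in a gene on the opposite strand and 11.6% on the same strand, while 45.1% of the TSS-free bins touched a protein-coding gene. The nearest protein-coding start site was at a median distance of 58.7 kb. In the 200 bases around the annotated 3′ end, 9.11% of the copies held a run of A (AAAAAAAAAA, read on the strand of the copy), against 5.25% around the 5′ end and 3.27% of bins. The polyadenylation signal AATAAA was found around 29.2% of the 3′ ends and in 18.5% of bins, which were read on the plus strand only.

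A symbol such as RPL21P28 names the parent gene, and 5620 copies could be assigned in this way to 1689 protein-coding parents. The symbol does not show how a copy arose, and some named families may have spread by duplication of DNA. The spans of 5590 copies of at most 5000 bp had a median identity of 86.6% to a transcript of the parent, with quartiles at 78.4% and 92.2%. Because the authors kept uniquely mappable reads, sequence that occurs elsewhere can lose reads. As a measure of this limit, 50-mers were sampled along every span and looked up in the whole genome on both strands. On average 89.4% of the 50-mers of a span were found once, against 88.9% in the flanks and 92.3% in the bins, and with 100-mers the values were 95.3%, 95.3% and 97.0%. All sampled 50-mers were found once in 4753 copies (50.9%), whereas 668 copies (7.16%) had under 50% and 147 had none. The read length is not given in the sources used here.

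Stretches of 4 copies are shown because they represent the main states in the lists and the range of identity. Each is the 200-base stretch that is most like the coding sequence of the parent, in hg19 and 5′ to 3′ on the strand of the copy, with capitals for bases that differ from the parent or that only the copy has, while bases that only the parent has are not marked. PAICSP3 (chr6:74037507-74037706, plus strand) was covered by both xChIP lists, with neither xxChIP list in the span or flanks. MTHFD2P4 (chr4:163244680-163244879, plus strand) had the opposite state, and ELL2P4 (chrX:145635726-145635925, plus strand) had no peak of any list. PHC1P1 (chr12:55808252-55808451, minus strand) was chosen after its values were seen, as the longest copy with at least 95% identity and under 50% of its 50-mers found once.
PAICSP3: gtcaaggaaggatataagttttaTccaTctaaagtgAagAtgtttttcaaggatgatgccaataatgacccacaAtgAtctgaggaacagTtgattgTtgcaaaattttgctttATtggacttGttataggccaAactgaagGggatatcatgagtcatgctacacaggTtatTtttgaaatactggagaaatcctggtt
MTHFD2P4: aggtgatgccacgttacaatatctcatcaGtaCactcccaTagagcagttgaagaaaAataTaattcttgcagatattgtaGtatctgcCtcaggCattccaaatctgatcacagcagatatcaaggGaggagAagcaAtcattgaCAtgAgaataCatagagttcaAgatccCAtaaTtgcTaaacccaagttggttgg
ELL2P4: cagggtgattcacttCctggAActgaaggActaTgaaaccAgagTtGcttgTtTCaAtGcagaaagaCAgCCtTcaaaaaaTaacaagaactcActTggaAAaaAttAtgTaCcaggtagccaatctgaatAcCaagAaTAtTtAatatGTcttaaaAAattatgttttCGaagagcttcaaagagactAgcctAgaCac
PHC1P1: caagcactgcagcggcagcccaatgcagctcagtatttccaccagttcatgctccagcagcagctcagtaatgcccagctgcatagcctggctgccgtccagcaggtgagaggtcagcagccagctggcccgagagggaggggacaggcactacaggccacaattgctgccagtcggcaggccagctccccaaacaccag
The stretch of PAICSP3 had 15 substituted bases and was 92.5% identical to the coding sequence of PAICS, an enzyme of purine synthesis. Over the whole spans the identity to the parent transcript was lower, 69.1% for PAICSP3, 65.1% for MTHFD2P4 and 60.8% for ELL2P4. The stretch of MTHFD2P4 was 87.0% identical to MTHFD2, a mitochondrial folate enzyme, and that of ELL2P4 was 76.0% identical to ELL2, an elongation factor of RNA polymerase II. The stretch of PHC1P1 was identical to PHC1, a Polycomb group protein, in all 200 bases. Over its 3061-bp span PHC1P1 was 98.1% identical to the parent transcript, and 28.7% of its 50-mers were found once. Both xxChIP lists nevertheless covered the span of PHC1P1 and its flanks to 100%, while xChIP H1.2 covered 13.7% of the flanks and none of the span.

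Peak coverage fell at the copies in all 4 lists, in which coverage means the percent of bases that lie in peaks, averaged over copies. For H1.2 in xChIP it was 27.1% in the spans and 31.4% in the 5-kb flanks, a ratio of 0.864, and for H1.5 it was 13.2% and 18.1%, a ratio of 0.731. In xxChIP the coverage by H1.2 was 15.6% and 20.8% (ratio 0.749), and that by H1.5 was 12.0% and 16.9% (ratio 0.709). As a raw ratio the dip was thus shallowest for xChIP H1.2, and the other 3 ratios lay close together. Spans and flanks differ in GC, however. TSS-free bins of the GC of the spans and of the flanks had 35.0% and 25.8% coverage by xChIP H1.2. For xChIP H1.5 these bins had 15.9% and 16.3%. For xxChIP the values were 14.6% and 20.5% with H1.2 and 13.6% and 17.5% with H1.5. The raw ratios therefore do not rank the lists at like GC. The peak boundaries were also thinner in the spans, with between 0.0498 and 0.0761 peak ends per kb, against 0.104 to 0.114 in the flanks.

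**Figure D1:**
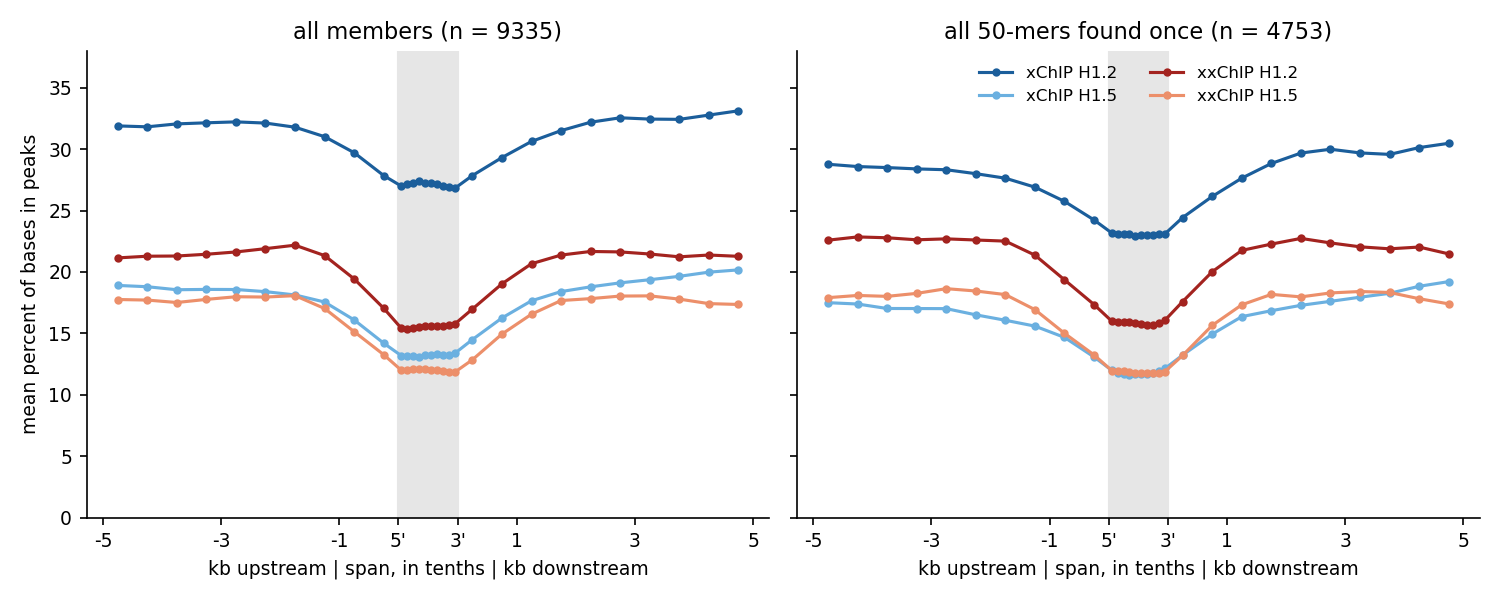
Mean percent of bases in peaks (y axis) along the 5 kb upstream of the copies in windows of 500 bp, the span in 10 equal parts (grey), and the 5 kb downstream, on the strand of the copy, for the 4 lists (lines). All 4 lists were lowest in the span and nearly level within it, both for all 9335 copies (left) and for the 4753 copies whose sampled 50-mers were all found once (right).

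The dip was centred on the span and was nearly symmetric. Coverage by xChIP H1.2 was 27.8% in the first 500 bp on each side, 29.7% upstream and 29.3% downstream in the next 500 bp, and 31.01% and 30.6% in the third window. With xxChIP H1.2 the same windows gave 17.05% and 16.98%, then 19.4% and 19.04%, then 21.3% and 20.7%, against 21.4% in the more distant flanks. Within the span its 10 equal parts differed little, from 26.8% to 27.4% for xChIP H1.2 and from 11.8% to 12.1% for xxChIP H1.5. Most spans are shorter than a peak, which limits how far the parts can differ. In the 2188 copies of at least 1000 bp, coverage by xChIP H1.2 went from 22.99% in the first part to 24.3% in the fourth and 22.1% in the last, below the 22.8% of the first downstream window, and xxChIP H1.5 went from 12.3% in the third part to 10.8% in the last.

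On single chromosomes the ratio of span to flank coverage was below 1 on 22 of 23 chromosomes for xChIP H1.2, with chromosome 4 as the exception (1.01, 540 copies), and on 23 of 23 in each of the other lists. The ratios over chromosomes in xChIP were 0.860 ± 0.0699 (SD, n = 23) with H1.2 and 0.736 ± 0.0767 with H1.5. In xxChIP they were 0.730 ± 0.0798 with H1.2 and 0.700 ± 0.0754 with H1.5. The distance from 1 was thus larger than the spread over chromosomes in each list. A ratio of 1 is not what GC alone would give, however. Bins of the GC of the spans and of the flanks had 14.6% and 20.5% coverage by xxChIP H1.2, and 35.0% and 25.8% by xChIP H1.2. Chromosome X, with 660 copies, had the lowest span coverage of all chromosomes with H1.2 in xChIP (9.19%) and with both antibodies in xxChIP (9.59% with H1.2 and 6.46% with H1.5). The highest span coverage was on chromosomes 12 (33.9%) and 7 (19.6%) with H1.2 and H1.5 in xChIP, and on chromosomes 4 (22.2%) and 19 (17.6%) in xxChIP.

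**Figure D2:**
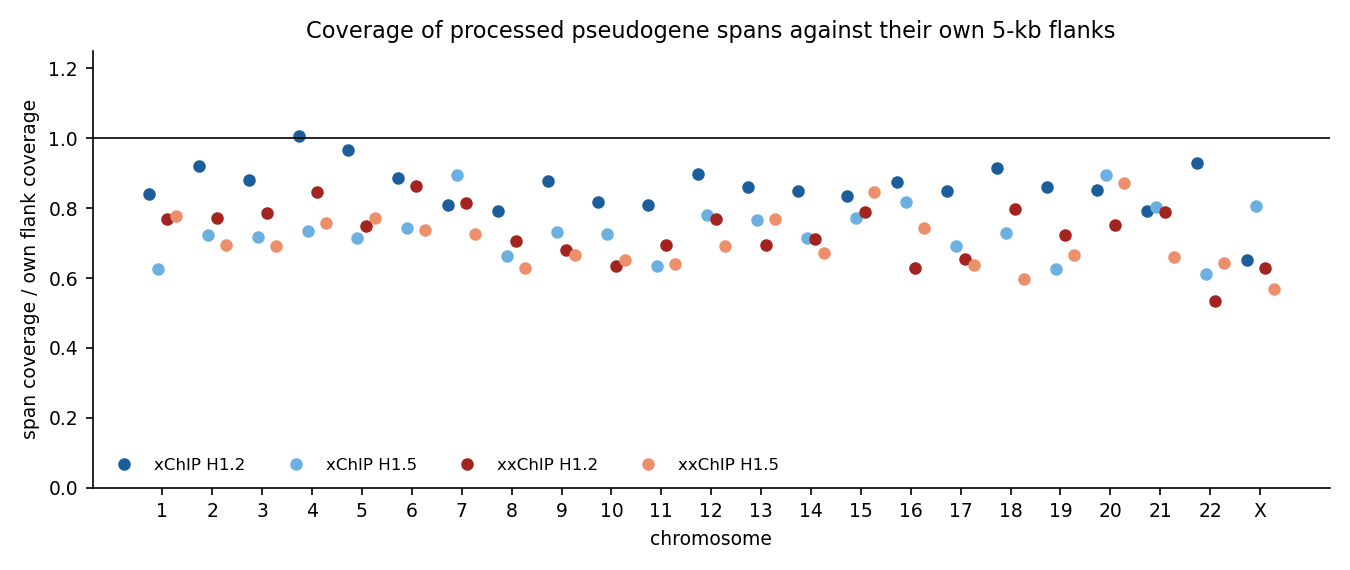
Coverage of the spans divided by that of their own 5-kb flanks (y axis, no unit) on each chromosome (x axis), 1 point per list, with a line at 1. All points lie below 1 except that of xChIP H1.2 on chromosome 4, at 1.01.

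The mean hides very different single copies. For xChIP H1.2, the span was covered less than its flanks in 3729 copies and more in 1444, and both were equal in 4162, of which 2993 had no peak in either. The corresponding numbers were 4178, 1132 and 4025 for H1.5 in xChIP. In xxChIP they were 4399, 1244 and 3692 with H1.2, and 4180, 1047 and 4108 with H1.5. A span was usually either in a peak or out of it: of the 2780 copies that xChIP H1.2 touched by at least 1 bp, 2270 were covered in full. Peaks of xChIP touched the spans of 29.8% of copies with H1.2 (95% interval 28.9% to 30.7%) and 16.2% with H1.5 (15.4% to 16.9%). Peaks of xxChIP touched 17.8% with H1.2 (17.03% to 18.6%) and 13.9% with H1.5 (13.2% to 14.6%). Segments of the median span length, 574 bp, at the start of TSS-free bins were touched in 28.2%, 19.1%, 23.9% and 20.7% of cases, in the same order.

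Windows of 2 kb centred on the copies can be compared with bins of the same length. The window was covered to at least 50% by xChIP H1.2 in 2548 copies (27.3%), against 25.5% of TSS-free bins and 31.2% of bins weighted to the GC of the windows. With H1.5 there were 1260 copies (13.5%), against 16.5% of bins and 16.7% after weighting. In xxChIP the count with H1.2 was 1462 (15.7%), against 21% and 18.3%, and with H1.5 it was 1133 (12.1%), against 17.9% and 16.2%. All 4 shares were below the share of bins of like GC, and only the share of xChIP H1.2 was above that of all TSS-free bins.

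The spans were then set against 2-kb bins of their own GC in classes of 1 percentage point, and the flanks against bins of the GC of each 1-kb flank window. The flanks had 1.22, 1.11, 1.01 and 0.969 times the coverage of such bins, and the spans had 0.775, 0.833, 1.07 and 0.885 times. The SD over chromosomes was 0.153 for xChIP H1.2 and between 0.240 and 0.251 for the other lists, so only the ratio of xChIP H1.2 lay further from 1 than its spread. With the GC of the centred 2-kb window in place of that of the span, the ratio of xxChIP H1.2 was 0.856, and it went from above to below 1. When bins were matched on the GC of the surrounding 100 kb, xChIP H1.2 came to 1.01 and xxChIP H1.2 to 0.778.

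**Figure D3:**
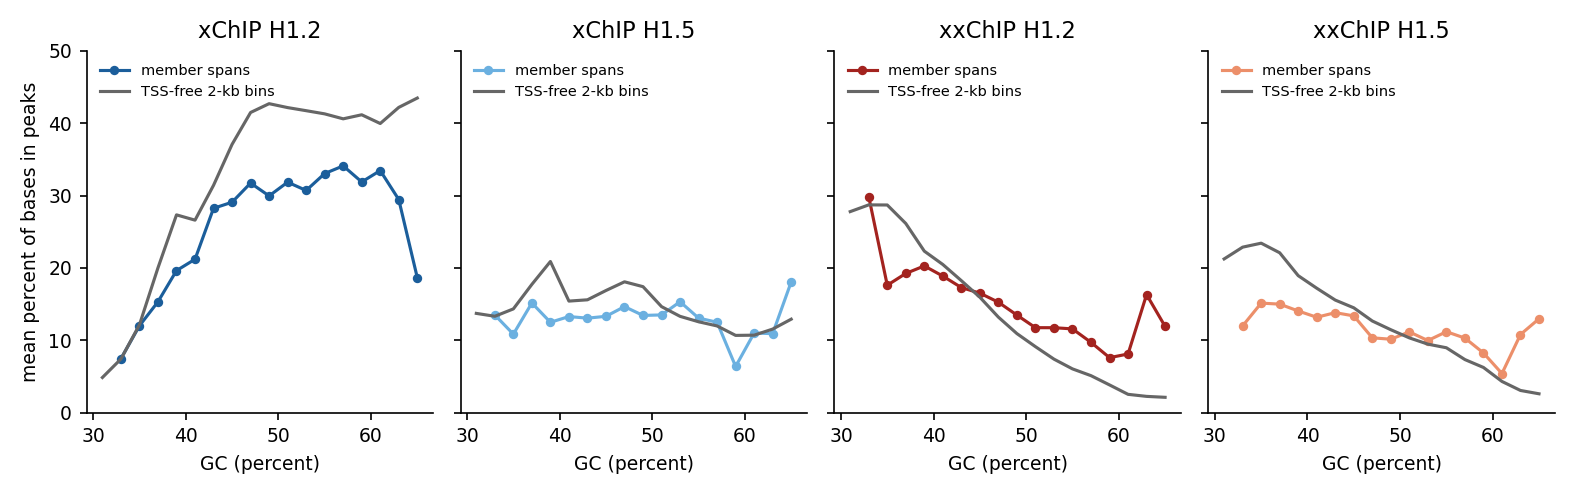
Mean percent of bases in peaks (y axis) against GC content in steps of 2 percentage points (x axis) for the spans (points, classes of at least 50 copies) and for TSS-free 2-kb bins (grey line), 1 panel per list. The spans follow a flatter course than the bins, below them over most of the range for xChIP H1.2 and above them at high GC for xxChIP H1.2. GC was taken over the span for the copies and over 2 kb for the bins.

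The ratio to bins was not the same at every GC. At a span GC of 55% and above, 1221 copies had 10.7% coverage by xxChIP H1.2, against 4.11% in the bins, and with H1.5 it was 9.24% against 6.19%. Under 38% GC the order was turned, with 20.0% in 755 copies against 27.4% in bins for H1.2 and 14.6% against 22.3% for H1.5 in xxChIP. Most spans are shorter than the bins, whereas the centred 2-kb windows have their length. Around 55% GC, xxChIP H1.2 covered 7.60% of windows, 6.07% of bins and 11.6% of spans. For xChIP H1.2 these values were 27.6%, 41.3% and 33.0%, and around 45% GC they were 40.2%, 37.1% and 29.1%. The comparison thus depended on the length over which GC was taken. The GC of the surrounding 100 kb went with a wider range of values. From under 37% (1560 copies) to 44% and above (2059 copies), span coverage by xChIP H1.2 went from 7.88% to 48.6% and that by xChIP H1.5 from 9.39% to 19.003%. Span coverage went the other way in xxChIP, from 25.3% to 8.64% with H1.2 and from 17.4% to 7.55% with H1.5. The TSS-free bins of the same classes followed the same course, from 12.8% to 43.9% by xChIP H1.2, from 29.3% to 11.97% by xxChIP H1.2 and from 23.9% to 11.7% by xxChIP H1.5, while xChIP H1.5 went only from 15.4% to 17.4% in bins. By distance to the nearest protein-coding start site, 1935 copies at 5 to 20 kb had 41.0% coverage by xChIP H1.2 and 12.0% by xxChIP H1.2, against 11.5% and 23.7% in 1987 copies over 200 kb away. Bins at these distances followed the same course, with 40.1% and 14.8% at 5 to 20 kb and 15.0% and 27.03% over 200 kb away. The copies lay below the bins except for xChIP H1.2 at 5 to 20 kb. These courses were thus not particular to the copies. At the limit of the choice, the 352 copies just inside (more than 5000 and up to 7500 bp from a start site) had 44.5% by xChIP H1.2 and 12.4% by xxChIP H1.2, and the 346 just outside (more than 2500 and up to 5000 bp) had 44.8% and 9.62%.

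The uniqueness of the sequence moved with xChIP coverage more in bins than in copies. The 668 copies with under 50% of 50-mers found once had 27.8%, 19.3%, 15.5% and 13.3% coverage in the 4 lists, and the 4753 copies with all of them found once had 23.1%, 11.8%, 15.9% and 11.9%. Bins of the lowest class reached 53.6% and 48.9% in the xChIP lists, against 16.5% and 11.3% in bins whose sampled 50-mers were all found once, while the xxChIP lists hardly differed (19.1% and 17.4%, against 20.97% and 17.4%). The 4753 copies with all 50-mers found once gave ratios of span to flank of 0.821, 0.710, 0.736 and 0.686. Their flanks were less unique than their spans, with 93.2% to 96.3% of 50-mers found once in windows of 500 bp. These ratios therefore compare sequence of unlike uniqueness. The 659 copies with at least 95% identity to their parent gave 0.798, 0.812, 0.613 and 0.639. The part of mapping in these values was not tested.

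The depth of the dip differed between copies of different length, but not in the same way in each list. Copies under 300 bp gave ratios of 0.894, 0.849, 0.727 and 0.779 and copies of 1000 to 2000 bp gave 0.812, 0.561, 0.678 and 0.668. The order was not steady, since the 457 copies of 2000 bp and above gave 0.827, 0.717, 0.624 and 0.634, and the 3282 copies in the class next to the shortest gave 0.823 for xxChIP H1.2. The span coverage by xChIP H1.5 was 15.6% under 300 bp and 9.58% at 1000 to 2000 bp, with flanks at 18.4% and 17.1%. Position in a gene made little difference to the dip, with ratios of 0.861, 0.739, 0.757 and 0.700 in 6215 copies outside protein-coding genes and 0.870, 0.717, 0.731 and 0.734 in 3120 copies inside them. The 850 copies with such a run of A at the 3′ end had ratios nearer to 1 (0.919, 0.869, 0.910 and 0.787) and a span coverage by xChIP H1.2 of 35.8%, against 26.2% in the others. Their flanks were also higher in this list, 39.0% against 30.6%. These copies were shorter (median 480 against 585 bp), had more GC (48.1% against 46.6%) and had fewer 50-mers found once (85.8% against 89.7%).

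Parents were sorted by function, because families of housekeeping genes make up much of the collection. Copies of cytosolic ribosomal proteins, the structural parts of the ribosome, were the largest family with 1404 copies of 79 parents, and their span coverage was 33.6%, 16.1%, 14.0% and 11.7%, against flanks of 37.2%, 19.9%, 18.6% and 15.4%. Keratins 8, 18 and 19, the intermediate filaments of simple epithelia, had the highest GC of the families (55.7%, 110 copies) and a ratio of 0.338 for xChIP H1.5, with 5.71% coverage in the spans and 16.9% in the flanks. Copies of glycolytic enzymes (88 copies, 58 of them of GAPDH) also had a low ratio for xChIP H1.5, 0.404. Copies of chaperones and isomerases and of the ubiquitin, SUMO and proteasome genes had their lowest ratios for xxChIP H1.5, 0.504 and 0.518. The keratin, glycolytic, chaperone and ubiquitin families were picked out of 12 families after their values were seen. Peaks of xChIP H1.5 touched only 8.18% of the keratin and 9.09% of the glycolytic copies. Their median spans were 1286.5 and 986.5 bp, and all copies of 1000 to 2000 bp gave 0.561 for this list.

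In 2 families the spans had higher xxChIP coverage than their flanks, and these families were picked out after their values were seen. For the 226 copies of chromatin-associated parents (such as HMGB1 and HMGN2, which bind DNA and nucleosomes, and NPM1, a histone chaperone of the nucleolus) the ratios were 0.945, 0.889, 1.11 and 1.11. For the 185 copies of RNA-binding and splicing parents they were 0.890, 0.895, 1.06 and 1.14. HNRNPA1 and HNRNPA3, which bind nascent RNA, are parents of the second family, and HNRNPA3 was picked out after its values were seen. The 67 copies of HNRNPA1 had xxChIP coverage of 34.7% (H1.2) and 24.7% (H1.5) in the spans and 28.1% and 19.04% in the flanks, and the 15 copies of HNRNPA3 had 50.5% and 55.5% in the spans and 14.4% and 26.3% in the flanks. These 2 parents hold 67 and 15 of the 185 copies, so the xxChIP ratios of the family rest largely on them. SNRPC and SNRPG, also of this family with 18 copies each, were picked out after their values were seen. H1.2 in xxChIP covered 0% and 5.56% of their spans and 9.78% and 11.3% of their flanks. H1.5 in xxChIP covered 11.1% and 16.7% of their spans and 9.71% and 12.6% of their flanks. In the chromatin-associated family, HMGB1, HMGN2 and NPM1 had higher xxChIP coverage in the spans than in the flanks with both antibodies. HMGN1 (30 copies) and HMGB3 (28 copies), picked out after their values were seen, went the other way. HMGN1 had 8.36% (H1.2) and 11.1% (H1.5) in the spans and 15.5% and 11.7% in the flanks. HMGB3 had 28.6% and 23.6% in the spans and 30.8% and 27.7% in the flanks. With 1 copy per cluster within 11 kb the chromatin-associated family kept xxChIP ratios of 1.09 and 1.13, and the RNA-binding family had 1.11 and 1.13. Among copies whose 50-mers were all found once, the xxChIP ratios were 1.12 and 0.998 for 91 chromatin-associated copies and 0.863 and 1.11 for 50 RNA-binding copies, so 1 list in each family went below 1. The xChIP ratios of the same copies were 1.17 and 0.764 for the former and 0.773 and 1.14 for the latter, so the split between the protocols was not kept. The ratio of 1.01 in the 35 copies of ferritins, the iron storage proteins, with xChIP H1.2 was 0.973 with 1 copy per cluster.

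**Figure D4:**
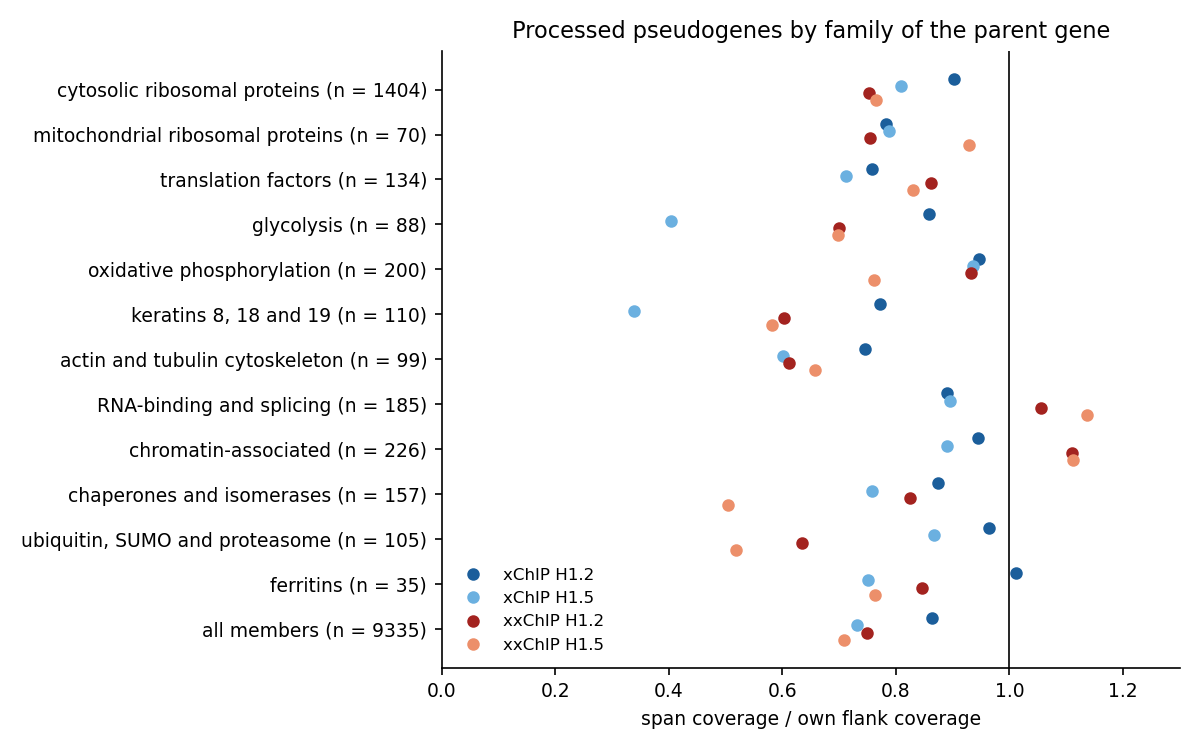
Coverage of the spans divided by that of their own flanks (x axis, no unit) by family of the parent gene (y axis, number of copies in brackets), 1 point per list, with a line at 1. Points right of the line are the xxChIP lists in the RNA-binding and chromatin-associated families (1.06 to 1.14) and xChIP H1.2 in the 35 ferritin copies (1.01).

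Of single parents, the 6 with the most copies were RPL21 (114), RPL7A (76), PPIA (75), RPL23A (74), HNRNPA1 (67) and RPSA (62). RPL21, RPL7A, RPL23A and RPSA are ribosomal proteins and PPIA is cyclophilin A, a peptidyl-prolyl isomerase. For RPL21, peaks touched 40, 22, 25 and 26 of the 114 copies in the 4 lists. Among all copies the shares touched were 29.8%, 16.2%, 17.8% and 13.9%. The mean span coverage was highest for RPL23A with xChIP H1.2 (39.7%) and for HNRNPA1 with xxChIP H1.2 (34.7%), and the lowest values were 19.5% for RPL7A with xChIP H1.2 and 8.06% for RPL23A with xxChIP H1.2.

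The parents themselves stood apart from their copies. Averaged over 1689 parents, the exons had 36.4% coverage by xChIP H1.2 and the spans of their copies 23.3%, and for xChIP H1.5 the values were 12.6% and 11.3%. In the xxChIP lists the order was turned, with 4.02% in the exons and 13.2% in the copies for H1.2, and 3.09% and 11.03% for H1.5. The exons of the 79 ribosomal protein parents had 57.5% and 17.6% coverage in xChIP with H1.2 and H1.5, but 0.454% and 0.565% in xxChIP, where their copies had 10.7% and 11.2%. No xxChIP H1.2 peak touched the exons of 77 of these 79 parents. With xChIP H1.5 the order depended on the measure and the set. The copies had the higher value for 45 of the 79 ribosomal parents and the exons for 24, and among the 94 parents with 10 or more copies the means were 14.8% for copies and 14.3% for exons, with copies higher for 68 and exons for 25. Exons often lie near the start site of their own gene, whereas copies near a start site had been left out, so sequence and place cannot be told apart in this comparison.

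**Figure D5:**
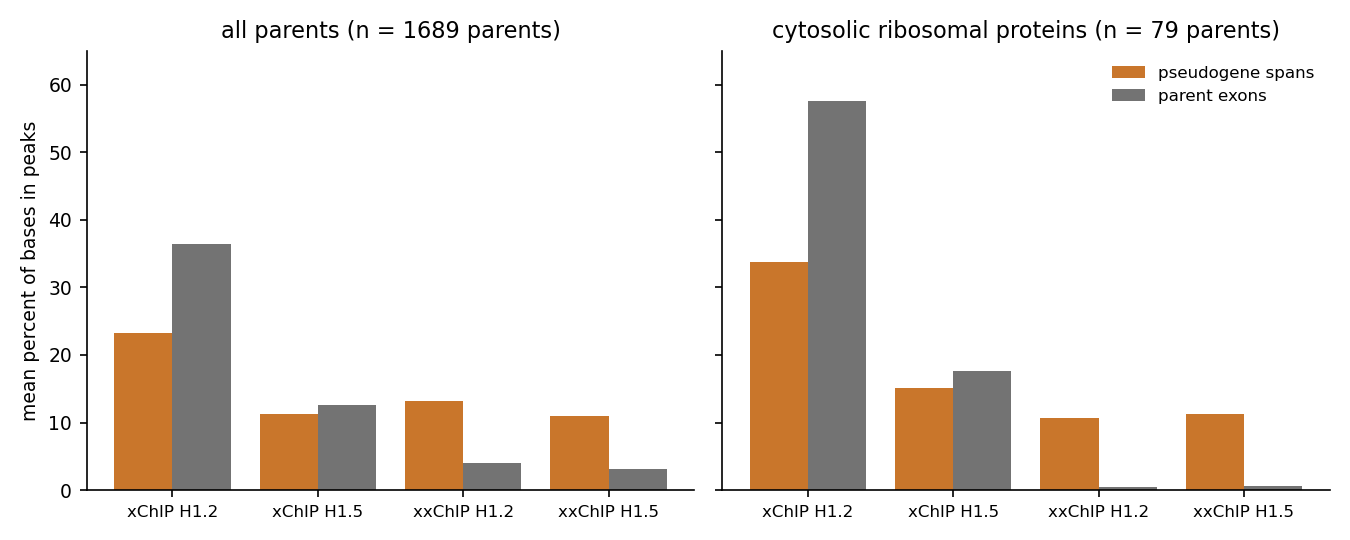
Mean percent of bases in peaks (y axis) in the spans of the copies (orange, averaged within each parent first) and in the exons of the parents (grey) for the 4 lists (x axis), for all 1689 parents (left) and for 79 cytosolic ribosomal protein genes (right). The grey bar is far higher with xChIP H1.2, slightly higher with xChIP H1.5 and lower in both xxChIP lists.

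Single genes differed in this. The exons of RPSA lay fully in peaks of xChIP H1.2 and in those of no other list, whereas 17 of its 62 copies were touched by xChIP H1.2 and 17 by xxChIP H1.2. The exons of PPIA were covered to 100% by both xChIP lists and by neither xxChIP list, and 9 and 7 of its 75 copies were touched by xxChIP H1.2 and H1.5. No list had a peak in the exons of HNRNPA1, but 22, 11, 29 and 20 of its 67 copies were touched in the 4 lists, so its xChIP order was the reverse of the mean over parents. Among all copies, 29.8%, 16.2%, 17.8% and 13.9% were touched. The xxChIP counts of PPIA lay below these shares, and those of HNRNPA1 lay above them.

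Overlap between the protocols was read beside that in TSS-free bins. Of 9335 spans, 2741 (29.4%) were touched by xChIP of either isotype only, 1613 (17.3%) by xxChIP only, 722 (7.73%) by both protocols and 4259 (45.6%) by no list. Segments of the median span length in bins gave 24.8%, 21.5%, 12.1% and 41.6%. Of the copies whose 2-kb window xChIP H1.5 covered to at least 50%, 55.3% were also called by xChIP H1.2, which is 27.4% of the copies called by xChIP H1.2. The xxChIP lists shared 529 copies, 36.2% of those called by H1.2 and 46.7% of those called by H1.5. In bins the shares were 54.04% of xChIP H1.5 and 34.9% of xChIP H1.2, and 44.1% and 51.7% for the xxChIP lists. Across protocols the copies shared for H1.2 were 9.62% of those called in xChIP and 16.8% of those called in xxChIP, and for H1.5 they were 11.5% and 12.8%. The same shares among bins were 17.7% and 21.4% for H1.2 and 20.2% and 18.5% for H1.5. By exact combination of lists, 4691 windows (50.3%) had none, against 46.6% of bins, 591 (6.33%) had both xChIP lists alone, against 6.34%, 407 (4.36%) had both xxChIP lists alone, against 6.4%, and 25 (0.268%) had all 4, against 0.772%. With bins weighted to the GC of the windows, these shares of bins were 44.9%, 7.67%, 4.90% and 0.689%.

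Complete states were less common. Both xChIP lists covered the span in full, with no xxChIP peak in the span or flanks, in 207 copies (2.22%), whose surrounding 100 kb had 44.5% GC. The opposite state was found in 148 copies (1.59%) with 38.7% GC around them, all 4 lists covered the span of 17 copies, and 294 copies (3.15%) had no peak of any list in the span or flanks. The median-length segments of bins were in these states in 2.72%, 2.14%, 0.499% and 4.47% of cases, and segment and span lengths differ. After PAICSP3, the longest copies of the first state with a known parent and at least 90% of 50-mers found once were RPS3AP54, EEF1A1P25, RPL7AP18 and RPL7AP2. EEF1A1P25 (chr3:138543905-138545171, plus strand) is a 1267-bp copy of the elongation factor gene EEF1A1 inside PIK3CB, on the opposite strand of that gene. RPL7AP2 (chr14:39625946-39627056, plus strand) lies opposite to TRAPPC6B, and xChIP covered its flanks to 100% with H1.2 and to 43.3% with H1.5.

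In the xxChIP state MTHFD2P4 was followed by KNOP1P5, KRT8P21, TMEM161BP1 and EEF1A1P22, none of them inside a protein-coding gene. KRT8P21 (chr1:73570475-73571965, plus strand), a keratin 8 copy with 57.1% GC and 99.3% of its 50-mers found once, lay 822253 bp from the nearest protein-coding start site, and xxChIP covered its flanks to 100% with H1.2 and to 59.3% with H1.5. EEF1A1P22 (chr15:53229336-53230715, minus strand) was 92.9% identical to the same parent as EEF1A1P25, which was in the opposite state at 90.2% identity. Of the 17 copies covered by all lists, the longest that met the same conditions were PHB1P8, DKKL1P1, LLPHP1, SOD1P3 and RPS25P3, of 375 to 725 bp. ELL2P4 was followed by DDX18P6, RALBP1P1, RAD21P1 and RBBP8P1 among the copies with no peak, and 3 of these 5 copies were on chromosome X. That chromosome held 660 of all 9335 copies. The 5 copies were picked by length and do not stand for all 294 copies without a peak.

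A further 210 copies carried the names of mitochondrial genes, and these are nuclear insertions of mitochondrial DNA rather than copies of a nuclear messenger RNA. They had 39.3% GC and 95.7% of 50-mers found once, and they lay in 101 clusters on 21 chromosomes, so many share 1 insertion. In the xxChIP lists, H1.2 peaks touched 77 copies (36.7%) and H1.5 peaks 27 (12.9%), with 16 in common. Of all 9335 copies 17.8% and 13.9% were touched by these lists, with 626 in common. Segments of the median span length in TSS-free bins were touched in 23.9% and 20.7% of cases. Of the xxChIP shares, only that with H1.2 was thus above that of all copies. Peaks of xChIP touched 13.8% (H1.2) and 18.6% (H1.5) of the 210 copies, against 29.8% and 16.2% of all copies. Averaged over clusters, H1.2 in xxChIP covered 32.4% of the spans and 32.3% of the flanks, and H1.5 covered 14.7% and 20.6%. The xChIP lists covered 11.9% (H1.2) and 11.03% (H1.5) of these spans, and 17.0% and 12.7% of the flanks. The group was singled out after its values were seen.

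The most similar annotated classes had dips of the same kind. The 2111 unprocessed pseudogenes under the same distance rule, which arise by duplication of DNA, had ratios of span to flank of 0.861, 0.810, 0.712 and 0.715, with 73.7% of 50-mers found once. Among sequences with all 50-mers found once, the ratios were 0.638, 0.664, 0.608 and 0.612 for 632 unprocessed pseudogenes, each lower than the value of the processed ones. The 392 transcribed processed pseudogenes, for which an RNA is annotated, had 0.812, 0.912, 0.763 and 0.757. The 109 of them with all 50-mers found once had 0.693, 0.605, 0.781 and 0.558. A drop of peak coverage over the span was therefore not particular to processed pseudogenes.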

How the data were processed

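Peak positions of H1.2 and H1.5 from xChIP-seq and xxChIP-seq in HL-60/S4 cells were used. Paired-end reads had been aligned by the authors (Bowtie2, hg19), reads without a unique position discarded, peaks called with MUSIC, and those of 3 replicates merged. The deposited lists give chromosome, start and end only. Groups are the labelled protocol and antibody. The 6 Input samples were not used here, and the sequencing depth is unknown.

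Genes were taken from GENCODE release 44 lifted to the assembly of hg19. Coverage was the percent of bases in peaks in each span and its 5-kb flanks. Bins of 2 kb with at least 90% known bases and no protein-coding start site within 5000 bp served as background, averaged by GC class (at least 200 bins). The 50-mers were sampled every 10 bp in spans and every 200 bp in bins. Identity was computed with edlib 1.3.9.post1 against protein-coding transcripts. Named copies were the 5 longest of each of 4 list states with a known parent and at least 90% of 50-mers found once, and the 6 parents with the most copies. The printed stretches belong to the first copies of 3 states, and other names were added after their values were seen. The members and lists were chosen with earlier results of these data known. No test was made, since each group has 1 merged list. The matching step was tested on simulated data. Alternatives changed the GC matching, the bins, the uniqueness and distance limits, the overlap and the chromosomes. Python 3.11.15 with numpy 2.4.6 was used.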

Additional observations from a re-analysis of the deposited data

Results flagged for a closer look

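Opposite directions in the xChIP and xxChIP lists were found for 2 families and for the parents, and none of these differences was tested. For the parents they are differences of means. In copies of RNA-binding and splicing parents the ratio of span to own flank coverage was 0.890 (H1.2) and 0.895 (H1.5) in xChIP, but 1.06 (H1.2) and 1.14 (H1.5) in xxChIP. These xxChIP values rest largely on copies of HNRNPA1 and HNRNPA3. In copies of chromatin-associated parents it was 0.945 and 0.889 for the xChIP lists and 1.11 and 1.11 for the xxChIP lists. Copies of HMGN1 and HMGB3, which belong to this family, had lower coverage in the spans than in the flanks in both xxChIP lists. Among copies whose 50-mers were all found once, neither family kept the split between the protocols.

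Coverage of the copies minus that of the parent exons over all 1689 parents was -13.2 percentage points (H1.2) and -1.29 (H1.5) in xChIP, and 9.14 (H1.2) and 7.94 (H1.5) in xxChIP. For the ribosomal protein parents the differences were -23.8 and -2.44 in the xChIP lists and 10.2 and 10.6 in the xxChIP lists. The direction for xChIP H1.5 was not kept by every measure, since the copies had the higher value for 45 of 79 ribosomal parents and for 68 of 94 parents with 10 or more copies. With 1 list per group, no group was large enough to look for single outlying samples.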

How the results depend on the processing

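No paired analysis was possible because the deposited lists hold merged peaks of the replicates without replicate values, and no replicate could be left out. The ratio of span to own flank coverage stayed below 1 in all 4 lists under each alternative run, none of which matched spans and flanks on GC. This ratio moved by more than the SD over chromosomes in 1 of 24 recomputed values, xChIP H1.5 in spans of at least 500 bp (0.655). The ratio of the flanks to bins moved by less than its SD over chromosomes in 56 of 56 values, but went from above to below 1 for xChIP H1.5 with bins matched on uniqueness too (0.985) and for xxChIP H1.2 outside protein-coding genes (0.964) and at its lowest with 1 chromosome left out (0.994), and with at least 90% of 50-mers found once it was 1.40 (xChIP H1.2) and 1.32 (xChIP H1.5). The ratio of the spans to bins of the same GC changed when bins were matched on the GC of 100 kb, to 1.01 for xChIP H1.2 and to 0.778 for xxChIP H1.2, both of which crossed 1, as did xxChIP H1.2 with the GC of the 2-kb window (0.856), and the cause was not tested. The share of 2-kb windows covered to at least 50% left its interval in 7 of the 32 values from settings that change the copies or peaks. It was 24.9% (xChIP H1.2) and 11.9% (xChIP H1.5) with at least 90% of 50-mers found once, 25.8% (xChIP H1.2), 16.7% (xxChIP H1.2) and 13.0% (xxChIP H1.5) outside protein-coding genes, 25.9% (xChIP H1.2) over 10000 bp from a start site, and at most 28.6% (xChIP H1.2) with 1 chromosome left out. With at least 50% of the span required, the shares overlapped were 27.1%, 13.2%, 15.5% and 11.9%, by construction lower. Peaks carry no height, so a dip within a peak cannot be seen, and reads of another length would map to other parts of the repeated copies.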
